A study of Homo sapiens with 44 samples.

Results

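Medroxyprogesterone acetate (MPA) was compared with progesterone (P4) in estrogen pretreated (E2p) ZR-75-1 cells by pooling the 4, 8 and 16 h treatments. The comparison took 18 of the 44 arrays of the series, 9 of E2p MPA and 9 of E2p P4 with 3 arrays at each time, as their titles name them. Each MPA group was set against the P4 group of the same time, and the pooled difference is the mean of the 3 differences. All 18 samples had received 10 nM estradiol (E2) for 72 h before 10 nM of either progestin was overlaid onto the existing medium, so that the priming E2 was not removed. Also drawn on were E2p cells overlaid with vehicle for 0, 4, 8 or 16 h (3 arrays each), E2p cells overlaid for 16 h with E2+MPA (3 arrays), E2+P4 (5 arrays) or E2 alone (3 arrays), with 3 arrays of unprimed cells given vehicle only in the same fit. ZR-75-1 is an established luminal breast cancer cell line with estrogen receptor and progesterone receptor (PR). It is a single line grown in 6-well plates, and RNA of all treatments was collected together. The labels number the replicates without saying that they were separate cultures, so the p-values rest on a spread between arrays that may be technical.

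P4 is the natural ligand of PR, a nuclear receptor that binds DNA on activation and raises or lowers the transcription of its target genes. MPA is a synthetic progestin used in contraception and hormone therapy, which differs from P4 by an added methyl group and an added acetoxy group. MPA is also known to bind other steroid receptors. In breast cancer cells, progestins lower the levels of the estrogen and progesterone receptors and induce genes such as FKBP5. The question here was whether the 2 compounds, at the same dose and times, differed by small amounts that held at each time.

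Values were log2 levels per transcript cluster, a set of probes summarised into 1 value. Levels of different genes cannot be compared, because their probes differ. Of the 53617 clusters, 41374 passed the filter on low values, and 13466 of those stood for a named gene. The 18 arrays were close in scale but not identical. The interquartile range of an array was 2.93 to 3.04 in MPA arrays and 2.97 to 3.09 in P4 arrays, with a difference of means of -0.0465 (p = 0.0178, two-sided exact permutation within times, 8000 arrangements). The median of an array was 5.56 to 5.65 in MPA arrays and 5.55 to 5.61 in P4 arrays (exact permutation p = 0.0703). Luminal epithelial markers were present. KRT18 averaged 11.54 in MPA arrays and 11.52 in P4 arrays, EPCAM 10.62 and 10.63, and GATA3 10.75 in both, and 0 of the 10 luminal markers tested passed. No fibroblast marker was among the tested genes, and 0 of 3 endothelial and 0 of 2 immune markers passed (PECAM1 averaged 5.17 in MPA arrays and 4.92 in P4 arrays). A marker may be untested for lack of a named cluster, since 16098 of the 53617 clusters carried 1 gene symbol.

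More differences passed the test over the pooled times than at any single time. At an adjusted p of at most 0.05 (limma with Benjamini-Hochberg correction over all clusters, the test behind each adjusted p below), 114 clusters differed between MPA and P4, which was 0.276% of those tested. Of these, 46 were higher in MPA (0.111%) and 68 lower (0.164%), and 62 carried a gene name, 23 higher and 39 lower. At single times, 6 clusters were called at 4 h (0.0145%), 1 at 8 h (0.00242%) and 5 at 16 h (0.0121%). The median standard error (SE) over clusters was 0.0879 for the pooled difference and 0.152 for a single time. The differences were small. Called clusters differed by 0.146 to 1.34 on the log2 scale with a median size of 0.35, and the median named gene differed 1.25-fold. Of the 114 clusters, 111 kept 1 direction at all 3 times (97.4%, against 38.8% of all clusters), and in 49 the MPA and P4 arrays did not overlap at any time (43.0%, against 0.353% of all clusters). Both shares are a description, since a cluster that differs at every time is more readily called.

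**Figure D1:**
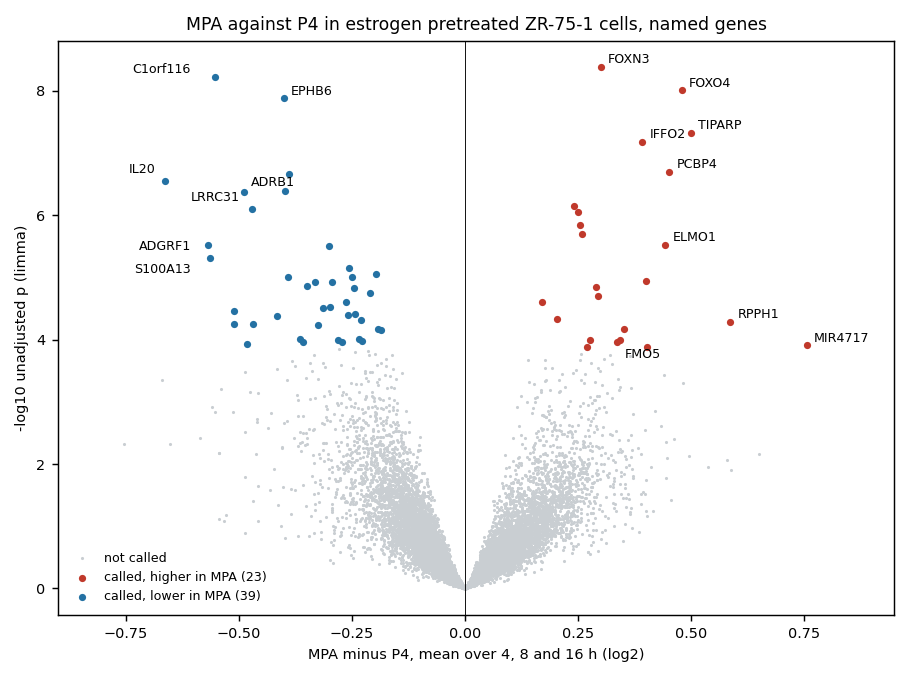
Each point is 1 of the 13466 named genes. The horizontal axis gives MPA minus P4 averaged over 4, 8 and 16 h on the log2 scale, and the vertical axis the -log10 of the unadjusted limma p. The 23 red points were called higher and the 39 blue points lower in MPA, and none of them lay beyond 0.76 in either direction.

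The number of calls depended on single arrays. Leaving out MPA 16 h replicate 1 or MPA 4 h replicate 3 left 61 called clusters, MPA 8 h replicate 1 left 64, and P4 16 h replicates 1, 2 and 3 left 65, 66 and 73. Without P4 4 h replicate 2 there were 68, without P4 8 h replicates 2 and 3 there were 69 and 74, and without MPA 4 h replicate 1 there were 382, which included all 114. With each array's interquartile range as a covariate, 121 clusters were called, 78 higher and 43 lower in MPA, and 75 of them were among the 114. After another quantile normalization 175 were called, 101 higher and 74 lower, with 104 of the 114 among them. The split between higher and lower calls thus differed with the scaling of the arrays. No named gene called in the pooled comparison changed direction under any of the 29 alternatives run. Of the 62 named genes, 17 kept their call in all of these alternatives and 17 lost it in 15 or more of them, FMO5 and MIR4717 included. The 17 stable genes were TIPARP, FOXO4, PCBP4, ELMO1, MOCOS, IFFO2, FOXP4, NDRG4 and FIBCD1, higher in MPA, and IL20, ADGRF1, C1orf116, ADRB1, LRRC31, EPHB6, RNF144B and HILPDA, lower in MPA.

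**Figure D2:**
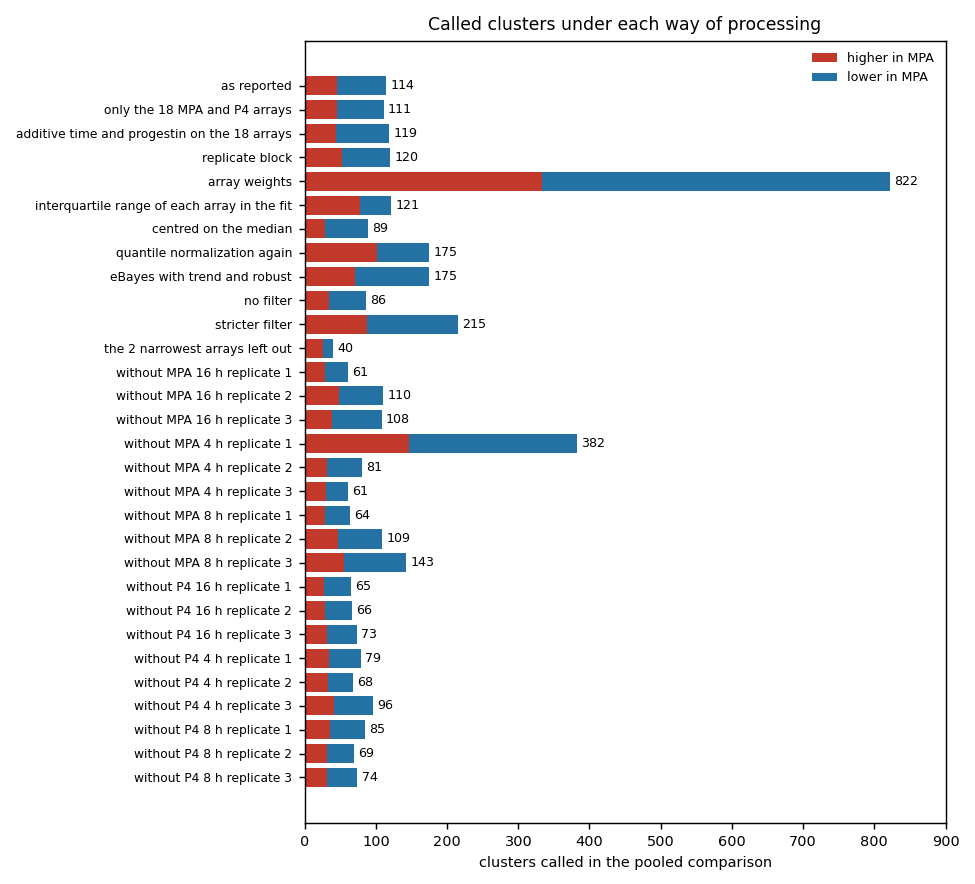
Bars give the number of clusters called in the pooled comparison of MPA with P4 under each way of processing, split into those higher (red) and lower (blue) in MPA. The count was 114 as reported, lay between 61 and 382 when 1 array was left out, and reached 822 with array weights.

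Among the genes higher in MPA, TIPARP, a mono-ADP-ribosyltransferase that restrains the aryl hydrocarbon receptor, had 1 of the largest called differences. At 4 h its levels were 11.66, 11.65 and 11.74 in MPA arrays, against 11.39, 11.29 and 11.52 in P4 arrays. At 8 h they were 11.56, 11.73 and 11.76 with MPA, against 11.19, 11.18 and 11.18 with P4, and at 16 h 11.52, 11.59 and 11.47 with MPA, against 10.77, 10.74 and 10.95 with P4. Every MPA array lay above every P4 array of its time. The pooled difference was 0.50 ± 0.071 (SE, n = 9 arrays each), 1.41-fold, with an adjusted p of 3.28e-04 and an exact permutation p of 0.00025, the smallest the 8000 arrangements allow. Against vehicle of the same time, TIPARP stood higher by 1.45, 1.24 and 1.07 with MPA at 4, 8 and 16 h, and by 1.16, 0.74 and 0.36 with P4. The gap between the progestins was 0.29, 0.50 and 0.71 at the 3 times, but the limma F-test of a change over time did not pass (adjusted p = 1).

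FOXO4, a forkhead transcription factor held in check by insulin and AKT signalling, differed most at the first time. Its levels were 9.16, 9.29 and 9.41 in MPA arrays at 4 h, against 8.46, 8.59 and 8.76 in P4 arrays. At 8 h they were 8.73, 9.01 and 8.76 with MPA, against 8.31, 8.65 and 8.48 with P4, and at 16 h 7.54, 7.44 and 7.73 with MPA, against 7.17, 7.16 and 7.17 with P4. The arrays did not overlap at any time, and both groups were lowest at 16 h, where MPA lay 0.03 above vehicle and P4 0.37 below it. The pooled difference was 0.48 ± 0.063, 1.39-fold, with an adjusted p of 1.02e-04. At 4 h it was called on its own, at 0.68 (adjusted p = 0.00977).

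The other large differences in this direction were in genes of unlike function. PCBP4, a poly(C)-binding RNA-binding protein, was 0.45 ± 0.069 higher in MPA (adjusted p = 0.00101), and its MPA and P4 arrays were separate at each time, with 9.34, 9.57 and 9.46 in MPA arrays at 16 h against 8.93, 8.86 and 8.96 in P4 arrays. ELMO1, a partner of exchange factors that activate Rac, was 0.44 ± 0.079 higher (adjusted p = 0.00425) and also separate at each time. MOCOS, which sulfurates the molybdenum cofactor of xanthine dehydrogenase and aldehyde oxidase, was 0.40 ± 0.078 higher (adjusted p = 0.0113). IFFO2, of the intermediate filament family, was 0.39 ± 0.057 higher and had nearly the same difference at each time (0.37, 0.39 and 0.42). NKD2, which binds Dishevelled and dampens Wnt signalling, was 0.35 ± 0.077 higher and SH3BP5, an exchange factor for Rab11, 0.34 ± 0.078 higher. Both of these lost their call in 17 of 29 alternatives. FOXP4, NDRG4 and FIBCD1, named after their values were seen because their calls held throughout, were higher by 0.26, 0.26 and 0.24.

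**Figure D3:**
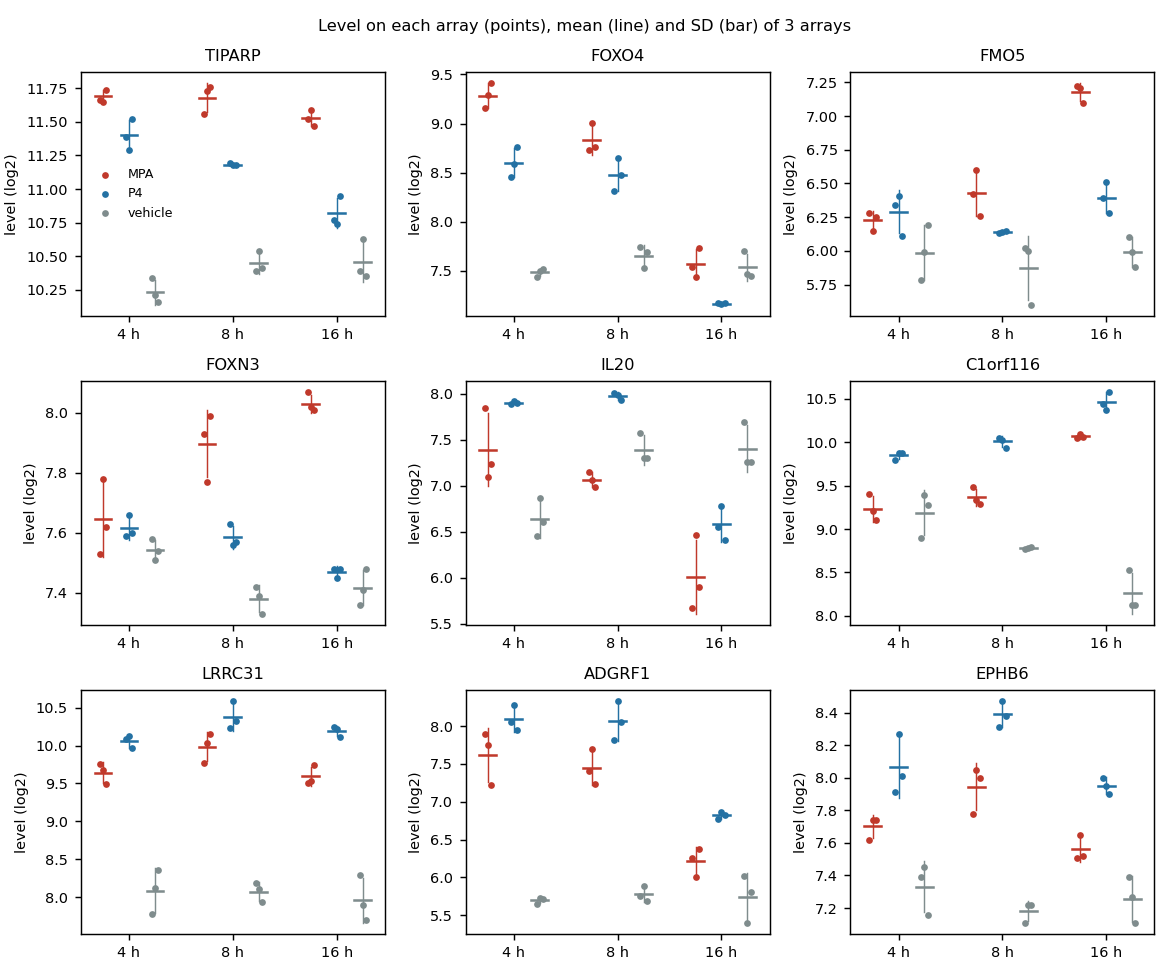
Log2 level of 9 genes on each array of E2p cells at 4, 8 and 16 h, with MPA (red) left of P4 (blue) and vehicle (grey). Lines and bars are the mean and SD of 3 arrays. In TIPARP, FOXO4, C1orf116, LRRC31, ADGRF1 and EPHB6 the MPA and P4 points are separate at all 3 times, while FMO5 and FOXN3 separate at 8 and 16 h and IL20 at 4 and 8 h.

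Among the genes lower in MPA, IL20, a cytokine of the interleukin 10 family, had the largest called difference of a named gene. Its levels at 4 h were 7.85, 7.10 and 7.24 in MPA arrays, against 7.89, 7.92 and 7.90 in P4 arrays. At 8 h they were 7.15, 7.06 and 6.99 with MPA, against 8.01, 7.99 and 7.93 with P4, and at 16 h 5.67, 6.46 and 5.90 with MPA, against 6.55, 6.78 and 6.41 with P4. The arrays were separate at 4 and 8 h and overlapped at 16 h. The pooled difference was -0.66 ± 0.103, 1.58-fold lower in MPA, with an adjusted p of 0.00104. IL20 was the only called cluster in which both compounds changed the level against vehicle in opposite directions over the pooled times, with -0.32 for MPA (adjusted p = 0.0179) and 0.34 for P4 (adjusted p = 0.0133). These means cover unlike times: the change was 0.75, -0.33 and -1.39 with MPA at 4, 8 and 16 h, and 1.26, 0.58 and -0.82 with P4.

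C1orf116, an androgen-regulated gene also known as SARG, had the smallest adjusted p among the genes lower in MPA, 8.33e-05. At 4 h its levels were 9.40, 9.21 and 9.10 in MPA arrays, against 9.80, 9.88 and 9.88 in P4 arrays. At 8 h they were 9.48, 9.33 and 9.29 with MPA, against 10.05, 10.03 and 9.94 with P4, and at 16 h 10.05, 10.10 and 10.06 with MPA, against 10.44, 10.37 and 10.58 with P4. Every MPA array lay below every P4 array of its time, and the pooled difference was -0.55 ± 0.071. Over the pooled times the gene was above vehicle with both compounds, and at 4, 8 and 16 h it stood 0.05, 0.59 and 1.81 above vehicle with MPA, and 0.67, 1.23 and 2.21 above it with P4. These gaps include a fall of vehicle itself, which averaged 9.58 at 0 h and 9.19, 8.78 and 8.26 at 4, 8 and 16 h.

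Further genes lower in MPA were of unlike function. ADGRF1, an adhesion G protein-coupled receptor, differed by -0.57 ± 0.101 (adjusted p = 0.00425), with 6.26, 6.01 and 6.37 in MPA arrays at 16 h against 6.77, 6.87 and 6.83 in P4 arrays. ADRB1, the beta-1 adrenergic receptor, differed by -0.49 ± 0.078 (adjusted p = 0.00134), with separate arrays at all 3 times. EPHB6, an Eph receptor without kinase activity, had 7.51, 7.65 and 7.52 in MPA arrays at 16 h against 8.00, 7.95 and 7.90 in P4 arrays, and differed by -0.36, -0.45 and -0.39 at the 3 times and by -0.40 ± 0.054 over them (adjusted p = 1.10e-04). HS3ST3B1, a sulfotransferase of heparan sulfate, differed by -0.41 ± 0.088 (adjusted p = 0.0251), and FLRT3, a transmembrane protein of cell adhesion, by -0.48 ± 0.110 (adjusted p = 0.0459), with overlapping arrays at 8 h only. The call of FLRT3 was lost in 19 of 29 alternatives and kept in 3 of the 18 that left out 1 array. LRRC31, a leucine-rich repeat protein, differed by -0.47 ± 0.078 (adjusted p = 0.0018), with 9.51, 9.53 and 9.74 in MPA arrays at 16 h against 10.24, 10.22 and 10.11 in P4 arrays. S100A13, a calcium-binding protein of the S100 family, differed by -0.56 ± 0.103, ANKRD22 by -0.51 ± 0.106 and the long noncoding RNA LINC00472 by -0.47 ± 0.101, each with separate arrays at all 3 times. RNF144B, a ubiquitin ligase, and HILPDA, which inhibits lipolysis at lipid droplets, were named after their values were seen and differed by -0.40 and -0.39.

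Promoter sequence is shown for 4 of the stable genes, TIPARP and FOXO4 from those higher and IL20 and EPHB6 from those lower in MPA, to set the letters around their start sites beside the values above. They were chosen after the matches were seen, and several other stable genes held none of them. The sequences are from RefSeq (GRCh38.p14) and cover 300 bases around the start of each gene, most of them upstream, on the strand of the gene. TIPARP lies at chr3:156674340-156674639, FOXO4 at chrX:71095601-71095900, IL20 at chr1:206863315-206863614 and EPHB6 at chr7:142862506-142862805, all on the plus strand. Capitals mark the steroid receptor half-site AGAACA and the dioxin response element core GCGTG, the core of sites bound by the aryl hydrocarbon receptor, each on either strand (TGTTCT and CACGC).
TIPARP: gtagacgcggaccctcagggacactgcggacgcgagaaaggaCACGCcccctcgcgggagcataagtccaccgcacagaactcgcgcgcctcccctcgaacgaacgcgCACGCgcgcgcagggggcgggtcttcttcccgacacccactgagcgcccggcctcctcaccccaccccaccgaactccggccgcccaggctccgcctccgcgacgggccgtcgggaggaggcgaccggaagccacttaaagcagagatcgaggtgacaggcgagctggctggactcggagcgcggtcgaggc
FOXO4: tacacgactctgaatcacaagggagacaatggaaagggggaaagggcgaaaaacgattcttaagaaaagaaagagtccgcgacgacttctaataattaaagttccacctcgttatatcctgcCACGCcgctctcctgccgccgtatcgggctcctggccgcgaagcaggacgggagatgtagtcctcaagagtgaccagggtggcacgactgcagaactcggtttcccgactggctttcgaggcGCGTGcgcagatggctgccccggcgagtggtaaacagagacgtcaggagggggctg
IL20: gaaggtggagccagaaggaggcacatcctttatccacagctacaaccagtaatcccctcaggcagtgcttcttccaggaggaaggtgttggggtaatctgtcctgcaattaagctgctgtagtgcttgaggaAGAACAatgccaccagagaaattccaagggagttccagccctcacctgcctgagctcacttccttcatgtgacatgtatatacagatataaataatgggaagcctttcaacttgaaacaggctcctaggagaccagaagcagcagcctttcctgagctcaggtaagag
EPHB6: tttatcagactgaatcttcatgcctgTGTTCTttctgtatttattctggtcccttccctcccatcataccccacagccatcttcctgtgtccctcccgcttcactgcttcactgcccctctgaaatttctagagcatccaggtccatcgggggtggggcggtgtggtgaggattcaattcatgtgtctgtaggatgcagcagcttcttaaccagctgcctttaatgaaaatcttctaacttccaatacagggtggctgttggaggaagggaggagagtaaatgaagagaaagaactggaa

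The TIPARP and FOXO4 windows each held 2 dioxin response element cores and 0 half-sites, and the IL20 and EPHB6 windows each held 1 half-site and 0 cores. Of the other stable genes, PCBP4, ELMO1, FOXP4, NDRG4, C1orf116 and LRRC31 held neither, ADGRF1 and ADRB1 held 1 core each and 0 half-sites, and RNF144B held 1 of each. MOCOS and FIBCD1 held 1 core each and IFFO2 held 2, all with 0 half-sites, and HILPDA had no window here. Promoters were found for 19 of the 23 genes called higher and 33 of the 39 called lower. The half-site was in 0 of the 19 windows of genes higher in MPA, in 8 of the 33 windows of genes lower in MPA (24.2%), and in 14.9% of all 27305 promoters. The core was in 10 of the 19 (52.6%), in 15 of the 33 (45.5%), and in 36.3% of all promoters. A match describes these letters only and says nothing of binding.

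Among the 12 largest called differences in each direction, 1 cluster higher in MPA and 1 lower were annotated to microRNA genes. Their mature sequences are given for reference, with the seed (bases 2 to 8) in capitals, from RefSeq (GRCh38.p14). MIR4717 lies on chromosome 16 and gives 2 mature arms, and MIR4429 lies on chromosome 2, and no seed was shared.
hsa-miR-4717-5p: uAGGCCACagccacccaugugu
hsa-miR-4717-3p: aCACAUGGguggcuguggccu
hsa-miR-4429: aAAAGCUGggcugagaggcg

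The arrays measured these loci as transcript clusters, and mature microRNA was not measured. MIR4717 had 4.92, 4.98 and 5.39 at 4 h in MPA arrays, against 4.28, 3.94 and 4.50 in P4 arrays, and 5.52, 4.64 and 5.24 at 16 h in MPA arrays, against 4.47, 3.87 and 4.32 in P4 arrays. At 8 h the arrays overlapped, with 4.55, 4.98 and 5.02 in MPA arrays against 4.57, 4.26 and 4.22 in P4 arrays. At 4 and 16 h every P4 array was at or under the 30th percentile of its array, which was taken as background. The measured difference was 0.76 ± 0.174 (adjusted p = 0.0462). With the P4 values raised to that percentile the difference was 0.503, or 1.42-fold higher in MPA. This smaller value is a point estimate and not a lower limit of the difference. MIR4429 differed by -0.51 ± 0.110 (adjusted p = 0.0318), with 6.78, 6.69 and 6.52 in MPA arrays at 4 h against 7.53, 7.44 and 7.15 in P4 arrays, and its arrays were separate at all 3 times. Over the pooled times neither microRNA gene passed against vehicle with either progestin. At single times MIR4429 changed by -0.83 with MPA at 16 h (adjusted p = 0.00155) and by 1.16 with P4 at 4 h (adjusted p = 3.81e-05). RPPH1, the RNA component of ribonuclease P, was 0.59 ± 0.126 higher in MPA (adjusted p = 0.0298), with arrays that overlapped at 4 and 8 h. TP53TG5, a gene named as a target of p53, was 0.40 ± 0.093 higher (adjusted p = 0.0485). The call was lost in 14 of 29 alternatives for RPPH1 and in 20 of 28 for TP53TG5 and MIR4717.

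Set against vehicle, many of the called clusters responded to both progestins and differed in how far, and others passed with 1 progestin alone. MPA changed 10419 clusters over the pooled times (25.2%) and P4 9362 (22.6%), and both comparisons use the same vehicle arrays. Of the 114 clusters, 30 were raised by both compounds and more by MPA, and 18 by both and more by P4. The class raised more by MPA held 15 named genes, among them PCBP4 with 1.47 for MPA and 1.02 for P4, ELMO1 with 1.53 and 1.08, SH3BP5 with 1.29 and 0.94, and MOCOS with 1.14 and 0.74. The class raised more by P4 held 15 named genes as well, among them LRRC31 with 1.70 for MPA and 2.17 for P4, ADGRF1 with 1.36 and 1.92, HILPDA with 1.69 and 2.08, ADRB1 with 1.00 and 1.49, and EPHB6 with 0.48 and 0.88. MPA alone passed the threshold in 26 clusters that it lowered and 9 that it raised. S100A13 changed by -0.40 with MPA and by 0.16 with P4, LINC00472 by -0.59 and -0.12, and FLRT3 by -0.50 and -0.01, where the P4 mean covers -0.69 at 8 h (adjusted p = 0.0106) and 0.55 at 16 h (adjusted p = 0.0433). P4 alone passed in 12 clusters that it raised and 4 that it lowered. Among those raised were ANKRD22 with 0.23 for MPA and 0.74 for P4 and RNF144B with -0.004 and 0.39. These classes hold for means over the times only, since MPA raised ANKRD22 by 1.13 at 16 h (adjusted p = 1.67e-05) and RNF144B by 0.49 at 4 h (adjusted p = 0.00243). Both lowered 7 clusters more with MPA and 1 more with P4, and 6 clusters passed with neither. In 1, IL20, they differed in opposite directions from vehicle of the same times.

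**Figure D4:**
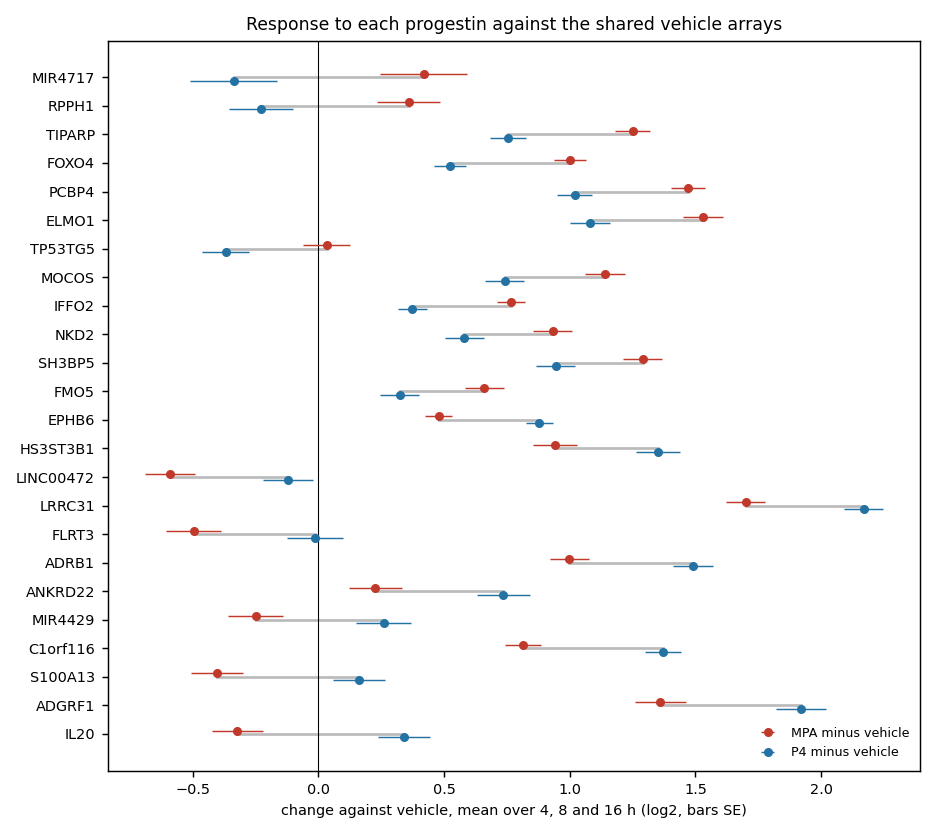
Change against vehicle with MPA (red) and P4 (blue), averaged over 4, 8 and 16 h on the log2 scale with SE, for the 12 genes with the largest called difference in each direction. Both points lie right of 0 for 9 of the upper 12 genes, and the grey line between them is the difference of the progestins.

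In FMO5 and FOXN3 the difference was larger at each later time. FMO5 is a flavin-containing monooxygenase that oxidises carbonyl compounds. Its levels at 4 h were 6.28, 6.15 and 6.25 in MPA arrays, against 6.34, 6.41 and 6.11 in P4 arrays, and overlapped. At 8 h they were 6.42, 6.60 and 6.26 with MPA, against 6.13, 6.14 and 6.15 with P4. At 16 h they were 7.22, 7.21 and 7.10 with MPA, against 6.39, 6.51 and 6.28 with P4, so that the arrays were separate at both later times. The differences at 4, 8 and 16 h were -0.06, 0.29 and 0.79, of which the last was called at that time alone (adjusted p = 0.0176). The pooled difference of 0.34 ± 0.077 passed at an adjusted p of 0.0445 (exact permutation p = 0.0118), and the call was lost in 22 of 29 alternatives, with differences of 0.31 to 0.38 and adjusted p of 0.0117 to 0.193 over them. FMO5 was the only called member of the 4 flavin-containing monooxygenases measured, and FMO1, FMO2 and FMO4 differed by 0.04, 0.06 and -0.06.

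FOXN3, a forkhead repressor, had the smallest unadjusted p of the named genes in the pooled comparison (adjusted p = 8.33e-05). Its levels at 4 h were 7.53, 7.78 and 7.62 in MPA arrays, against 7.59, 7.66 and 7.60 in P4 arrays. At 8 h they were 7.93, 7.77 and 7.99 with MPA, against 7.63, 7.56 and 7.57 with P4. At 16 h they were 8.07, 8.02 and 8.01 with MPA, against 7.48, 7.45 and 7.48 with P4. The differences were 0.03, 0.31 and 0.56 at 4, 8 and 16 h, so that the groups overlapped at the first time and were separate at the others. The F-test over times gave an unadjusted p of 1.20e-05 for FOXN3 and 3.48e-04 for FMO5, and neither passed after correction (adjusted p = 0.166 and 0.936).

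In the test of a difference between times as a whole, 0 clusters passed with limma. An unadjusted p under 0.05 was found in 1528 (3.69%), a share below the 0.05 that chance gives. The lowest adjusted p was 0.0551. TNS4, a focal adhesion protein, gave the second smallest F-test p of the named genes (6.31e-05), with differences of 0.78, -0.79 and -0.80 at 4, 8 and 16 h. Its levels at 4 h were 8.33, 7.15 and 7.18 in MPA arrays, against 6.75, 6.68 and 6.90 in P4 arrays, and at 16 h 8.20, 8.31 and 8.44 with MPA, against 9.05, 8.88 and 9.42 with P4. MPA was thus above P4 at the first time and below it at the later times, and the 4 h mean rests in part on 1 MPA array. CAVIN1, a coat protein of caveolae, had the same order of signs (0.26, -0.40 and -0.27), and RUSC2 had 0.40, -0.22 and -0.07. N4BP2L1 and SNN were called at 4 h alone, at -0.65 and 0.57, and differed by -0.004 and 0.18 at 8 h and by 0.06 and -0.004 at 16 h. PPT1, a lysosomal thioesterase, was called at 16 h alone at -0.36, where its levels were 11.31, 11.26 and 11.32 in MPA arrays and 11.65, 11.68 and 11.64 in P4 arrays.

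Cells overlaid with E2 as well gave the same comparison on 8 other arrays, E2+MPA against E2+P4 at 16 h, which share no sample with the pooled comparison. Both comparisons take the spread of a cluster from the same fit, so a cluster of small spread is more readily called in both. There 2517 clusters were called (6.08%), 1100 higher in E2+MPA (2.66%) and 1417 lower (3.42%), and 1122 without E2+MPA replicate 2. With each array's interquartile range as a covariate there were 3327, 1730 higher and 1597 lower, so that the larger direction turned. Of the 46 clusters higher in MPA in the pooled comparison, 20 were also called higher with E2 (43.5%) and 0 lower. Of the 68 lower in MPA, 20 were called lower with E2 (29.4%) and 3 higher. Over all clusters, 3.98% were called with E2 in the direction of their pooled difference and 2.11% in the opposite direction. TIPARP had 11.50, 11.57 and 11.55 in E2+MPA arrays, against 10.25, 11.00, 10.47, 10.31 and 10.87 in E2+P4 arrays, a difference of 0.96 ± 0.110 (adjusted p = 6.84e-07). Its E2+P4 arrays were split, with replicates 2 and 5 above replicates 1, 3 and 4. So were those of PCBP4, with 8.93 and 8.90 against 8.27, 8.48 and 8.38. In LRRC31 replicates 2 and 5 were highest as well, at 10.10 and 10.06, but close to the others. In IFFO2 they were not apart, at 7.46 and 7.36 against 7.57, 7.39 and 7.39. The source of the split was not tested. All calls with E2 rest on this group. PCBP4 was higher by 0.79, MOCOS by 0.63 and IFFO2 by 0.62 in E2+MPA, and IL20 lower with a difference of -0.62, EPHB6 with -0.72 and LRRC31 with -1.31, all called. LRRC31 had 8.85, 8.52 and 8.75 in E2+MPA arrays, against 9.86, 10.10, 10.00, 10.03 and 10.06 in E2+P4 arrays, which did not overlap. Among those not called with E2 were FOXO4 (0.16), ADGRF1 (-0.46) and FMO5 (0.16).

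The size of the difference itself changed with E2 in some genes. The E2+MPA minus E2+P4 difference departed from the 16 h MPA minus P4 difference in 729 clusters (1.76%), of which 12 were among the 114. C1orf116 was higher in E2+MPA, with 10.71, 11.21 and 10.90 against 10.35, 10.54, 10.34, 10.27 and 10.63 in E2+P4 arrays. The difference was 0.51 with E2 and -0.39 without (adjusted p of the change = 0.00203). Replicates 2 and 5 were the highest of its E2+P4 arrays. ADRB1 had 0.24 with E2 and -0.49 without (adjusted p = 0.0255). Its E2+P4 replicates 2 and 5, at 7.94 and 8.04, lay among the E2+MPA levels of 7.92, 8.12 and 7.88. The E2+P4 replicates 1, 3 and 4 lay below them, at 7.37, 7.55 and 7.77. LRRC31 kept its direction and had -1.31 with E2 and -0.60 without (adjusted p = 0.0303). FOXN3 had -0.02 with E2 and 0.56 without (adjusted p = 2.75e-04). The levels of TNS4 and CAVIN1, which were not called in the pooled comparison, gave 1.66 and 0.70 with E2 and -0.80 and -0.27 without. In TNS4 the E2+P4 levels were 9.12 and 9.34 in replicates 2 and 5, and 8.25, 8.14 and 8.37 in replicates 1, 3 and 4. All of these lay below the E2+MPA levels of 9.90, 10.66 and 10.33.

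**Figure D5:**
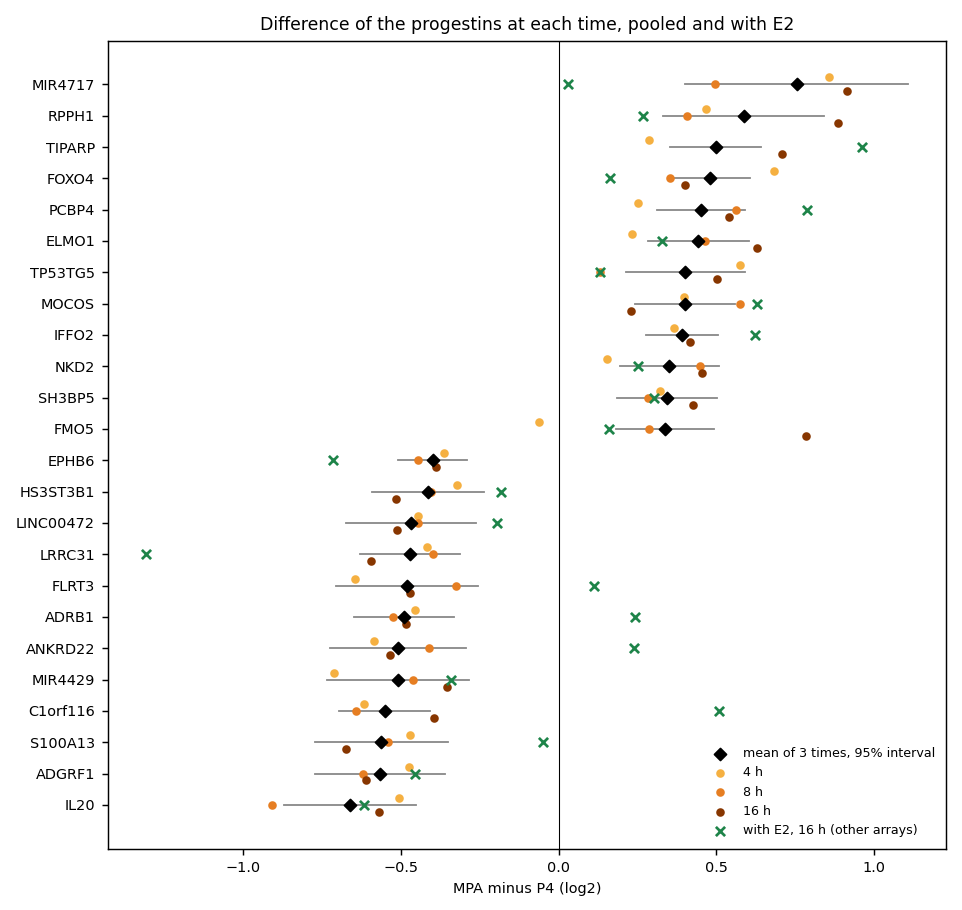
MPA minus P4 on the log2 scale for the 12 largest called differences in each direction. Circles are the differences at 4, 8 and 16 h, diamonds their mean with its 95% confidence interval, and crosses the difference of E2+MPA and E2+P4 at 16 h on other arrays. The circles lie on 1 side of 0 in all genes but FMO5, and the crosses of C1orf116, ADRB1, ANKRD22 and FLRT3 lie on the other side from their diamonds.

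PGR, which encodes PR, changed by -2.12 with MPA and by -1.94 with P4 against vehicle over the pooled times. Its levels at 16 h were 8.41, 8.61 and 8.43 in MPA arrays, against 8.82, 8.92 and 8.76 in P4 arrays, and were separate. The pooled difference was -0.18 ± 0.074, with an exact permutation p of 0.005 for this single gene and an adjusted p of 0.277, so it was not called. With E2 it was -0.95 and was called (adjusted p = 1.32e-06). The E2+P4 arrays were split here too, with replicates 2 and 5 at 8.92 and 8.71, below the 9.20, 9.53 and 9.43 of the others. The E2+MPA levels of 8.11, 8.19 and 8.31 lay below all of them. ESR1, which encodes the estrogen receptor, changed by -1.63 with MPA and by -1.64 with P4, and the difference of 0.01 had a 95% confidence interval of -0.13 to 0.14. With E2 it was -0.55 (adjusted p = 4.22e-04). E2+P4 replicates 2 and 5, at 7.64 and 7.45, again lay below the others, at 7.73, 7.83 and 8.11. The E2+MPA levels were 7.13, 7.13 and 7.35.

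The gene lists held few members called in the pooled comparison. Of 23 estrogen-induced targets measured, 3 were lower in MPA and 0 higher, IL20, MYBL1 and RAPGEFL1, with a list median of -0.07 beside -0.01 over all named genes, of which 39 of 13466 were called lower and 23 higher. MYBL1, a MYB family transcription factor, differed by -0.30 ± 0.053, with changes of -0.53 for MPA and -0.23 for P4 against vehicle, whereas RAPGEFL1 differed by -0.20 ± 0.038 and was raised by both, by 0.44 with MPA and 0.64 with P4. GREB1, PDZK1 and TFF1, well known targets of the same list, differed by 0.02, -0.36 and 0.19 and did not pass. Of 24 genes of G1/S and DNA replication, 1 was lower, MCM7, a subunit of the replicative helicase, at -0.28 ± 0.064 (adjusted p = 0.0443), and its call was lost in 21 of 29 alternatives. The list median was -0.06, and that of 19 genes of G2/M and mitosis, none called, was -0.08. With E2, 13 of the 24 G1/S genes, 7 of the 23 estrogen-induced targets and 2 of the 19 G2/M genes were lower in E2+MPA. In these lists 0 were higher there, and of all 13466 named genes 822 were lower and 606 higher. These calls rest on the E2+P4 arrays that were split in several genes. Of 17 Wnt pathway genes 1 was called, NKD2.

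Of 18 glucocorticoid-induced targets 0 passed in either direction, with a median of 0.01, and of 11 androgen-induced targets 0 passed, with a median of 0.05 and 81.8% of them higher in MPA, against -0.01 and 46.9% over all named genes. With 62 of 13466 named genes called in all, counts of 0 in lists of this size say nothing particular of them. The androgen list did not hold C1orf116, given above as androgen-regulated, which was called lower in MPA at -0.55. STEAP4, a metalloreductase and an androgen target, was raised by 2.81 with MPA and 2.52 with P4, and its difference of 0.29 (95% interval 0.06 to 0.52) had an adjusted p of 0.261. FKBP5, a cochaperone and target of steroid receptors, was raised by 1.89 with MPA and 1.84 with P4, with a difference of 0.05 (95% interval -0.11 to 0.21). Of 15 progestin-induced targets measured, 13 were raised by each compound and 1, TIPARP, differed, with a list median of -0.08. TIPARP was also the 1 called member of the 4 aryl hydrocarbon receptor genes measured, and AHR and ARNT differed by -0.07 and -0.01. Of 14 genes of steroid metabolism 0 passed.

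The intervals bounded the pooled difference only, not the difference at a single time or with added E2. Differences of opposite sign at 4, 8 and 16 h cancel in the pooled mean, as in TNS4. The intervals also rest on the spread between arrays, which may be technical. In 92.5% of all tested clusters the 95% confidence interval of the pooled difference, not corrected for their number, lay within 1.5-fold in both directions, and in 5 clusters it lay wholly beyond 1.5-fold. Among the 3330 clusters that progestins raised in the arrays with E2 the share within 1.5-fold was 97.7%, and among the 4832 that they lowered it was 98.6%. These 2 sets had narrower intervals, with a median half-width of 0.136 and 0.134 against 0.179 over all clusters. Among the 397 clusters raised 2-fold or more the share was 89.7%, and among the 340 lowered 2-fold or more it was 88.8%, both below that of all clusters. The 340 clusters that they lowered 2-fold or more were chosen on arrays that the pooled comparison does not use. Their median difference was -0.11, and 16.5% of them were higher in MPA, against 50.4% of all clusters. By time the median was -0.18, -0.05 and -0.08 at 4, 8 and 16 h. The mean level of these clusters at 4 h was 7.41, 7.45 and 7.26 in MPA arrays, against 7.58, 7.70 and 7.49 in P4 arrays, with no overlap. At 8 h it was 6.70, 6.90 and 6.75 with MPA, against 6.74, 6.94 and 6.86 with P4, and at 16 h 6.29, 6.44 and 6.48 with MPA, against 6.53, 6.50 and 6.43 with P4, and the arrays overlapped at both times. Only 1 of the 340 was called by itself. With each array's interquartile range as a covariate, which was narrower in MPA arrays as given above, their median difference was -0.03 and 36.5% were higher in MPA. After another quantile normalization these were -0.10 and 20%, and after median centring -0.13 and 12.1%, so that only the covariate made the shift much smaller. Among the 397 clusters raised 2-fold or more, the median difference was -0.05. It was -0.01 with the range as a covariate, -0.02 after another quantile normalization and -0.07 after median centring.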

How the data were processed

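RNA of 44 samples was measured on Affymetrix Gene ST arrays, and the deposited values are on the log2 scale, made by the authors with RMA (background correction, quantile normalization and probe summarisation). The submitters' processing notes name RMA and limma without a version. The labels name the Gene 1.0 ST design, but cluster identifiers matched the Gene 2.0 ST annotation, from which genes are named. Scanner files were not used here. Clusters above the 30th percentile of their array on at least 3 arrays were tested. Means of all 14 groups were fitted with limma 3.58.1 in R 4.3.3, with 30 residual degrees of freedom, by code tested on simulated data. The number of arrays limits the precision. Named genes were the 12 largest called differences per direction, FMO5, TIPARP, PGR and ESR1, up to 4 called members per list, the 5 largest per single time not called in the pooled comparison, and the 5 smallest F-test p. The cluster with the highest mean stood for a gene. The members, lists and rules were chosen with earlier results of these data known. The rule for background levels, the test of a change with E2 and the sets changed 2-fold were added after earlier values were seen. Alternatives covered the arrays used, weights, scaling, filter, moderation and leaving out each array.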

Additional observations from a re-analysis of the deposited data

Results flagged for a closer look

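The difference between MPA and P4 at 16 h changed with added E2, by the interaction of both differences in limma, in 7 of the 41 named genes, beside 1.76% of all clusters. Many of the 41 were named for differences that include the same 16 h values, so this count supports nothing. C1orf116 had 0.51 with E2 and -0.39 without (adjusted p = 0.00203), ADRB1 0.24 and -0.49 (0.0255), and LRRC31 -1.31 and -0.60 (0.0303). ESR1 had -0.55 with E2 and 0.04 without (adjusted p = 0.0328), and FOXN3 had -0.02 and 0.56 (0.000275). TNS4 had 1.66 with E2 and -0.80 without (adjusted p = 5.15e-05), and CAVIN1 had 0.70 and -0.27 (0.000119). What sets these genes apart was not tested.

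A single array stood apart among the 5 E2+P4 arrays in 2 of the 41 genes, where chance marks about 1 in 20. In N4BP2L1 replicate 4 had 5.67 and the next lowest array 5.92, a gap of 0.741 of the group's range. In FIBCD1 replicate 5 had 7.90 and the next lowest 8.06, a gap of 0.768 of the range.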

How the results depend on the processing

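The pooled count of 114 became 822 with array weights, 175 after another quantile normalization (101 higher and 74 lower in MPA), 175 with a trended and robust prior, 215 with the stricter filter, and 40 without the 2 arrays of narrowest range, a choice made after seeing the data. The 8 h count of 1 and the 16 h count of 5 became 7 and 12 on the 18 arrays alone, 16 and 65 with array weights, 4 and 21 with the interquartile range as a covariate, 3 and 16 after quantile normalization, and 2 and 11 with the stricter filter. Median centring gave 2 at 8 h, and the trended prior gave 9 at 16 h. The 4 h count of 6 became 0 on the 18 arrays alone, 3 with the stricter filter and 1 without the 2 narrowest arrays. Array weights gave 2 clusters in the test between times. The causes were not tested. Leaving out 1 array gave 61 to 382 pooled calls, 0 to 21 at 4 h (0 without P4 replicate 1, 1 without MPA replicate 3 or P4 replicate 2, 21 without MPA replicate 2), 1 at 8 h, 2 to 3 at 16 h, 0 to 1 between times, and 1122 to 2993 with E2.

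The labels do not say that a replicate number pairs samples. Same-numbered MPA and P4 deviations correlated at 0.128 to 0.274 at 8 h, against -0.168 to -0.0211 for other numbers. At 4 h they correlated at -0.0228 to 0.336, against -0.317 to 0.174. At 16 h they correlated at -0.114 to 0.037, against -0.0976 to 0.0622. The ranges were thus separate at 8 h only, and no pairing was taken. A replicate block gave 120 pooled calls, of which 100 were among the 114, and 10, 2 and 11 at 4, 8 and 16 h.

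No called named gene changed direction. The ESR1 pooled difference, not called, was 0.00736 as reported, -0.0115 after median centring, and -0.0138 to 0.0444 with 1 array left out, below 0 without MPA 16 h replicate 3 (-0.00526), MPA 8 h replicate 2 (-0.00887), P4 16 h replicate 3 (-0.0036), P4 4 h replicates 1 (-0.0101) and 3 (-0.0122) and P4 8 h replicate 3. The spread between 3 arrays limits single times, where the median SE was 0.152.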
